A study of Mus musculus with 4 samples.

Results

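The vascular endothelial growth factor (VEGF) family was described through 9 genes, chosen by symbol from the 32286 genes of the count tables. They are the ligands *Vegfa*, *Vegfb*, *Vegfc* and *Pgf*, the receptors *Flt1* (VEGFR1), *Kdr* (VEGFR2) and *Flt4* (VEGFR3), and the neuropilin coreceptors *Nrp1* and *Nrp2*. The rule uses symbols and no measured value, although the family was picked with earlier results of these data known. All 9 had UMIs, from 497 UMIs of *Vegfa* to 579262 UMIs of *Flt1* over the cells kept. A UMI is a molecular barcode that stands for 1 captured mRNA molecule.

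VEGF-A binds FLT1 and KDR, and KDR carries most of its signal for endothelial growth, survival and permeability. FLT1 binds VEGF-A, VEGF-B and placental growth factor (PlGF, from *Pgf*) and is widely described as a decoy for VEGF-A. FLT4 binds VEGF-C and is best known from lymphatic endothelium and from endothelial tip cells, the leading cells of vascular sprouts. NRP1 binds VEGF-A and NRP2 binds VEGF-C, and both also bind class 3 semaphorins together with plexins.

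The mice were 3 months old. *Angpt2*-WT mice (*Angpt2*+/+) were WT1, a female, and WT2, a male, and *Angpt2*-KO mice (*Angpt2*-/-) were KO1, a female, and KO2, a male. The KO allele was made with a *Pgk*-Cre line, which is active in the germ line, so it lacks exon 4 of *Angpt2* in all tissues. All mice came from matings of heterozygotes backcrossed to C57BL6/J, and the WT mice were littermates. Vascular fragments of the brain were pulled down with magnetic beads carrying a PECAM1 antibody, dissociated, and sequenced with 10x Genomics 3′ v3.1 chemistry, with 1 library per mouse.

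After removal of cells with 500 or fewer genes or with 10% or more mitochondrial UMIs, 4043, 5742, 2900 and 5314 cells of WT1, WT2, KO1 and KO2 remained, with a median of 5441, 4674.5, 7351.5 and 4088.5 UMIs per cell. Of the cell barcodes, 33 were shared between libraries. Endothelial cells (ECs) of brain type numbered 3223, 4697, 2088 and 4148, and all 7 endothelial markers had UMIs in them in each mouse. ECs were clustered without the 9 genes and named by listed zone markers. Arterial-like ECs were led by *Mgp*, *Gkn3* and *Stmn2*. Venous-like ECs joined a cluster led by *Adgrg6*, *Lrg1* and *Ackr1* with a larger one led by *F5* and *Ndnf*, in which the venous markers were weak. Capillary-like ECs joined 2 clusters, both with choroid plexus *Ttr* among the leading genes. A further cluster of 1814 ECs, led by *Apln*, *Esm1* and *Trp53i11*, drew 97.2% of its cells from KO mice with the mice weighted equally, and is called KO-dominated ECs. It held 1.12%, 0.681%, 40.8% and 21.6% of the ECs of WT1, WT2, KO1 and KO2. Levels are given as CPM, a gene's UMIs divided by all UMIs of a cell group in 1 mouse. *Angpt2* itself stood at 10.6 and 9.92 CPM in WT ECs and at 65.4 and 41 CPM in KO ECs, and because 3′ UMIs come mainly from the end of the transcript they do not check the deletion.

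The genes lie on 7 chromosomes of the mouse build GRCm38. Among the ligands, *Vegfa* is at chr17:46016993-46032369 on the minus strand, *Vegfb* at chr19:6982473-6987651 on the minus strand, *Vegfc* at chr8:54077606-54187096 on the plus strand and *Pgf* at chr12:85166635-85177790 on the minus strand. Of the receptors, *Kdr* at chr5:75932827-75978458 and *Flt1* at chr5:147561604-147726011 share a chromosome and the minus strand, and *Flt4* is at chr11:49609263-49652739 on the plus strand. The neuropilins are *Nrp1* at chr8:128358604-128503363 and *Nrp2* at chr1:62703285-62818695, both on the plus strand.

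The promoters of the coreceptor that rose in KO ECs, *Nrp1*, and of the receptor with the smallest difference there, *Flt1*, are shown with the ETS core GGAA in capitals (TTCC where it lies on the other strand), since ETS factors such as ERG are the main endothelial transcription factors known to act on this family. Each is the 250 bases before the RefSeq start on GRCm38.p6, read 5′ to 3′ on the strand of the gene, and neither overlaps an annotated exon of its gene.
*Nrp1*, chr8:128358823-128359072, plus strand: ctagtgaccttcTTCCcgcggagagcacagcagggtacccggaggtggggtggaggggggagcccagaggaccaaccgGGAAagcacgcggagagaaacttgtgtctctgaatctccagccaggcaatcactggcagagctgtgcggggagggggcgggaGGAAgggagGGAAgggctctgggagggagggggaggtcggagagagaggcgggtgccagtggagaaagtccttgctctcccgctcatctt
*Flt1*, chr5:147726012-147726261, minus strand: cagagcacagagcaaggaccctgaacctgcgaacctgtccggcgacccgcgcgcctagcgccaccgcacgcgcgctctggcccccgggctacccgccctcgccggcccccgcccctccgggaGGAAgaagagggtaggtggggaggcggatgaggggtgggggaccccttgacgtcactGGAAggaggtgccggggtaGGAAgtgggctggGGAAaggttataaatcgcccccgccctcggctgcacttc
Each window held 4 ETS cores, counted on both strands. The core is short, and 93.4% of 32851 mouse promoters of the same length held at least 1, with a median of 3. The hypoxia response core ACGTG was in neither window on either strand, against 16.6% of all promoters. By ETS core number these windows do not set *Nrp1* apart from *Flt1*.

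Ligands were scarce over all ECs, with higher levels of *Vegfc* in arterial-like ECs and of *Pgf* in the *Apln*-positive ECs of KO mice. *Vegfa*, the main ligand of KDR, stood at 1.70, 1.15, 0.661 and 1.14 CPM in the ECs of WT1, WT2, KO1 and KO2, from 15 to 45 UMIs per mouse. The log2 fold change (KO over WT) was -0.68 ± 0.42 (SE; adjusted p = 0.444, edgeR quasi-likelihood test). Its highest EC level was in arterial-like ECs, at 3.58 ± 1.69 CPM (mean ± SD over 4 mice). *Vegfb*, a ligand of FLT1, stood at 13.75 and 18.5 CPM in WT ECs and at 11 and 12.15 CPM in KO ECs, a log2 fold change of -0.50 ± 0.16 (adjusted p = 0.128, edgeR). Both KO mice lay below both WT mice, but the difference did not pass the test.

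*Pgf*, a ligand of FLT1 alone among the VEGF receptors, had the largest fold of the family. It stood at 0.530 and 0.768 CPM in WT ECs and at 29.9 and 10.3 CPM in KO ECs, with KO1 well above KO2. Its log2 fold change was 4.90 ± 0.53 (adjusted p = 0.00273, edgeR), and without the KO-dominated ECs it was 1.51 (adjusted p = 0.297, edgeR). These UMIs came from few cells. In KO1, 678 UMIs lay in 43 ECs, of which 12 cells with 10 or more UMIs held 604 and the top cell held 245. In KO2, 226 UMIs lay in 35 ECs, with 84 in the top cell. In WT1 and WT2, 14 and 26 UMIs lay in 13 and 12 ECs, none with 10 or more. Thus 2.06% of KO1 ECs (95% Clopper-Pearson interval 1.49 to 2.76) and 0.844% of KO2 ECs (0.588 to 1.17) had a UMI, against 0.403% (0.215 to 0.689) and 0.255% (0.132 to 0.446) in WT1 and WT2. B cell-like cells, which should lack the gene, had 0 UMIs in each mouse, which allows up to 7.1 CPM in KO1 and up to 29 CPM in KO2. The intervals cover counting error only. KO ECs with *Pgf* were deep, with a median of 28436 against 7440 UMIs for the other ECs of KO1 and 10235 against 3877 in KO2. Because smooth muscle-like cells also hold *Pgf*, their markers were summed in these cells. They reached 696, 28.1, 78.7 and 113 CPM in the ECs with *Pgf* of WT1, WT2, KO1 and KO2, 83, 58, 31.1 and 65.2 CPM in the ECs without it, and at least 21790 CPM in smooth muscle-like cells. They were thus higher in the ECs with *Pgf* in 3 of 4 mice, most of all in WT1, and their part in the *Pgf* values was not tested.

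*Vegfc*, the ligand of FLT4, stood at 44.5 and 47.9 CPM in WT ECs and at 24.2 and 35.6 CPM in KO ECs. The groups did not overlap, and the log2 fold change was -0.65 ± 0.17 (adjusted p = 0.0727, edgeR). Without the KO-dominated ECs it was 0.03 (adjusted p = 0.938, edgeR). Arterial-like ECs, where *Vegfc* was highest, were 19.7% and 14.5% of WT ECs and 6.94% and 7.91% of KO ECs, so the sums over all ECs mix zones in different proportions, and a shift in zones and a change within cells cannot be told apart in them.

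Receptor levels in ECs were higher in KO mice for *Kdr* and *Flt4*, without passing the test, and overlapped for *Flt1*. *Flt1* stood at 4815, 4113, 4400 and 5036 CPM in WT1, WT2, KO1 and KO2, and 99.5% to 99.7% of ECs had a UMI. Its log2 fold change was 0.06 ± 0.19 (adjusted p = 0.905, edgeR). *Kdr* stood at 717 and 672 CPM in WT ECs and at 1024 and 1001 CPM in KO ECs. Both KO mice lay above both WT mice, with a log2 fold change of 0.52 ± 0.145 (adjusted p = 0.0805, edgeR). *Flt4* stood at 74.45 and 65.7 CPM in WT ECs and at 102 and 89.95 CPM in KO ECs, again without overlap, with a log2 fold change of 0.43 ± 0.12 (adjusted p = 0.0768, edgeR). DESeq2 called *Kdr*, *Flt4* and *Vegfc* in addition, with adjusted p of 0.000266, 0.0382 and 0.0141. Without the KO-dominated ECs the *Kdr* difference was 0.23 (adjusted p = 0.523, edgeR).

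*Nrp1* rose in KO ECs, and kept its call when any 1 of the 4 mice was left out. It stood at 214.5 and 176 CPM in WT1 and WT2 and at 519.9 and 425 CPM in KO1 and KO2, so the lower KO mouse lay well above the higher WT mouse. The log2 fold change was 1.25 ± 0.17 (adjusted p = 0.0052, edgeR), and without the KO-dominated ECs it was 0.82 (adjusted p = 0.0246). A *Nrp1* UMI was found in 65.1% (63.5 to 66.8) of ECs in WT1, 57.1% (55.7 to 58.5) in WT2, 85.9% (84.4 to 87.4) in KO1 and 69.2% (67.8 to 70.6) in KO2. With each cell thinned to 2000 UMIs these shares were 33.8%, 30.5%, 56.1% and 52%, over the 3043, 4121, 1978 and 3541 ECs deep enough. Between genotypes the unthinned shares differed by 16.5 percentage points and the thinned shares by 21.9 points (unthinned, exact two-sided permutation test, p = 0.333, the smallest p that 2 against 2 mice allow). B cell-like cells had a *Nrp1* UMI in 5% to 7.69% of cells at a median of 2130 to 3658 UMIs, below ECs at 3885.5 to 7512 UMIs. *Nrp2* differed little, at 138 and 161 CPM in WT ECs and 151 and 135 CPM in KO ECs, a log2 fold change of -0.08 ± 0.11 (adjusted p = 0.753, edgeR).

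Thus 2 of the 9 genes, *Nrp1* and *Pgf*, were called in ECs at an adjusted p under 0.05, both higher in KO, against 5.97% of the 13528 genes tested (519 higher and 288 lower). Shares of ECs with a UMI moved from 85.8% to 89.9% for *Kdr*, or from 66.2% to 77.5% after thinning, and from 15.4% to 9.65% for *Vegfc*, or from 5.82% to 4.39% after thinning. These are means of the 2 mice of each genotype (unthinned, exact two-sided permutation tests, p = 0.667 for *Kdr* and p = 0.333 for *Vegfc*).

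**Figure D1:**
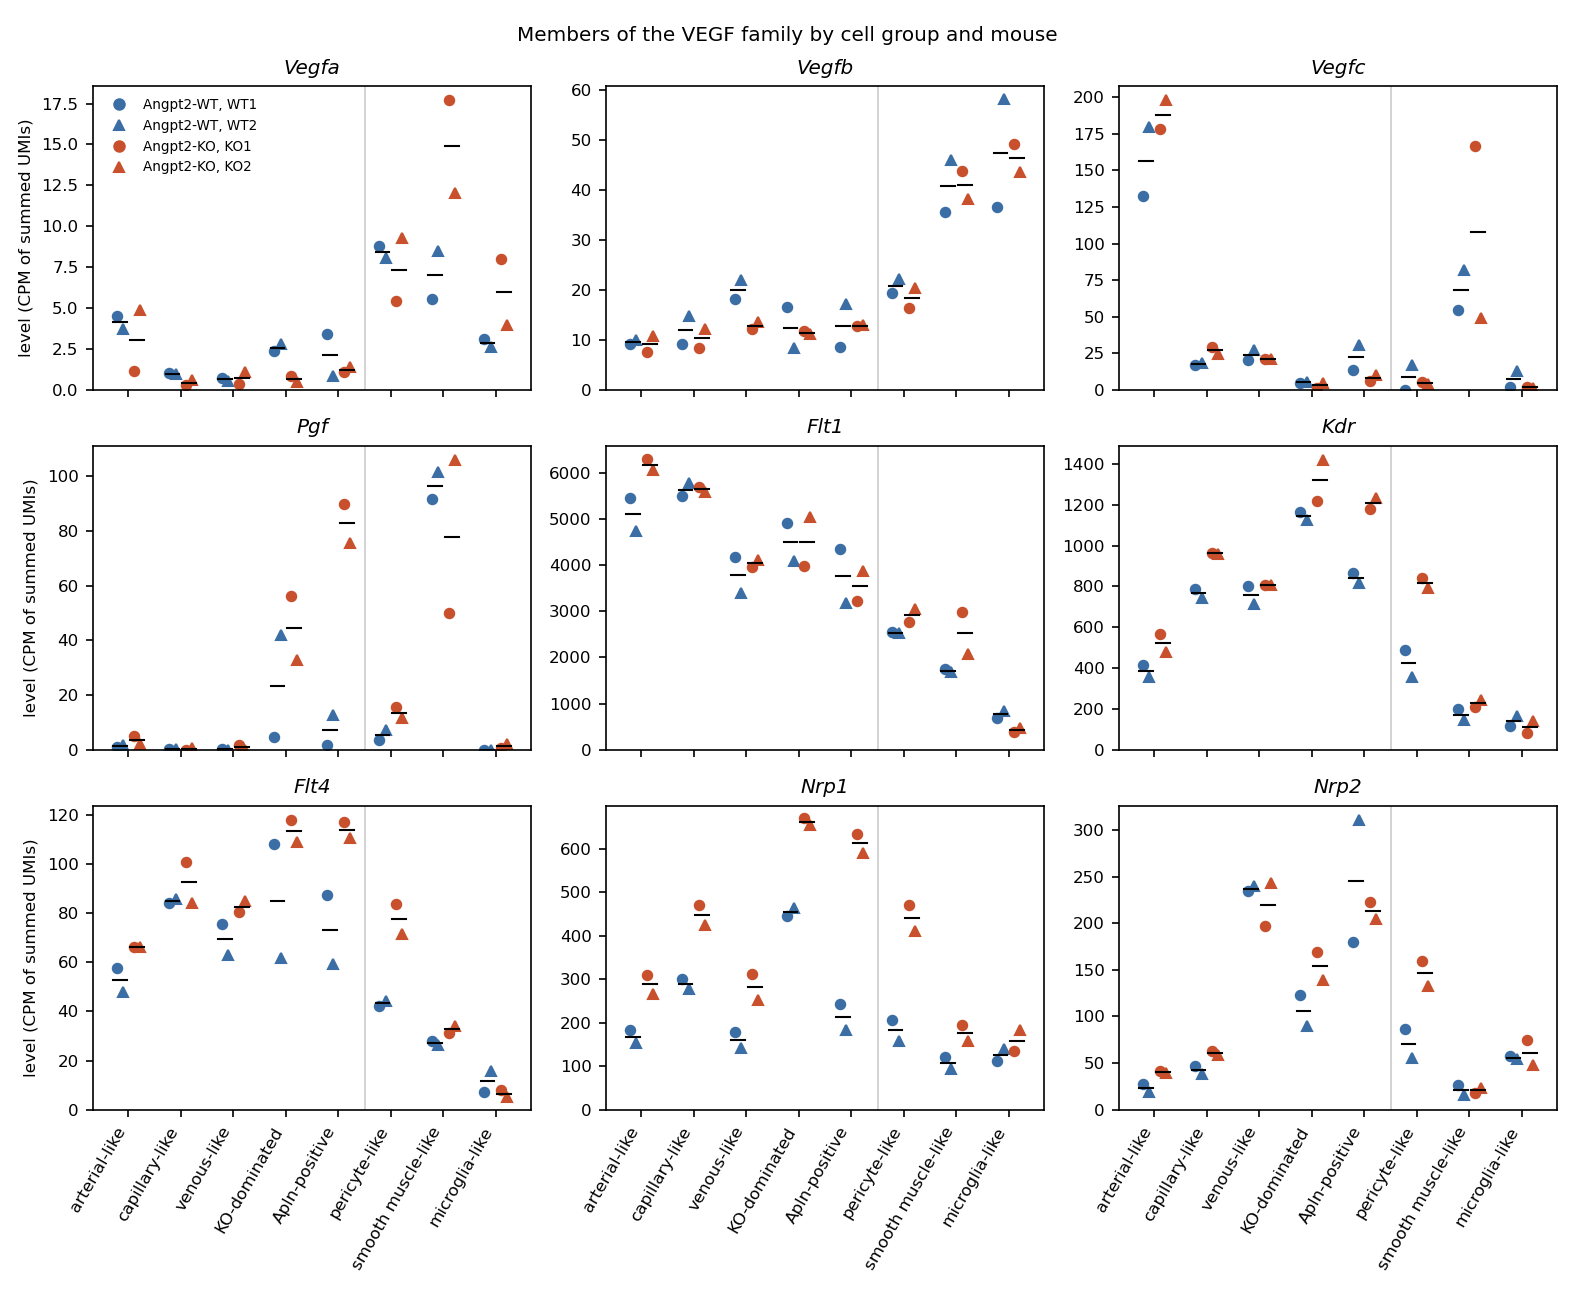
Level (CPM of summed UMIs, linear axis from 0, scaled per gene) of the 9 genes in 8 cell groups, with 1 point per mouse and a bar for the genotype mean. *Vegfc* stands out in arterial-like ECs (mean 172 CPM over the mice), *Nrp2* in venous-like ECs (229 CPM), and the KO points of *Nrp1* lie above the WT points in every EC group drawn.

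Across the zones, *Vegfc* marked the arterial side and *Nrp2* the venous side. These are descriptions, because the zones were cut from the same cells. *Vegfc* stood at 132.5 and 180 CPM in arterial-like ECs of WT1 and WT2 and at 178 and 198 CPM in those of KO1 and KO2, against 22.3 ± 5.69 CPM in capillary-like and 22.4 ± 3.2 CPM in venous-like ECs (mean ± SD over 4 mice), and arterial-like was above the other zones in 4 of 4 mice. Capillary-like and venous-like ECs could not be ordered for it, with 2 of 4 mice each way. KO-dominated ECs held 4.21 ± 1.77 CPM of *Vegfc*, below the capillary-like level in 4 of 4 mice.

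*Nrp2* went along the zones from 31.8 ± 10.4 CPM in arterial-like through 51.6 ± 10.9 CPM in capillary-like to 229 ± 21.7 CPM in venous-like ECs, an order that held in 4 of 4 mice. Within the venous-like ECs it stood at 522 ± 58.2 CPM in the *Ackr1*-led and at 124 ± 7.78 CPM in the *F5*-led cluster. *Kdr* was lowest in arterial-like ECs, at 455 ± 90.1 CPM, against 864 ± 114 CPM in capillary-like ECs (lower in 4 of 4 mice) and 782 ± 44.8 CPM in venous-like ECs, which lay below the capillary-like level in 3 of 4 mice. *Flt4* followed the same order, at 59.5 ± 8.63, 88.9 ± 8.07 and 76 ± 9.43 CPM in arterial-like, capillary-like and venous-like ECs.

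*Flt1* was at 5640 ± 695 CPM in arterial-like and 5630 ± 124 CPM in capillary-like ECs, which overlapped, and at 3910 ± 360 CPM in venous-like ECs, lower in 4 of 4 mice. *Nrp1* was highest in capillary-like ECs among the zones, at 368 ± 93.8 CPM, against 228 ± 72.6 CPM in arterial-like and 220 ± 75.7 CPM in venous-like ECs. The spread of *Nrp1* reflects genotype, since each zone holds WT and KO mice. KO-dominated ECs had 558 ± 120 CPM of *Nrp1* and 1230 ± 132 CPM of *Kdr*, and the 36 and 32 cells of that cluster from WT1 and WT2 had *Nrp1* at 445 and 463 CPM and *Kdr* at 1166 and 1124 CPM, above the capillary-like ECs of the same mice. In the cells of that cluster that had no *Apln* UMI, *Nrp1* was still at 620.5 and 614 CPM in KO1 and KO2, whereas *Pgf* was at 1 UMI in each.

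Within zones, the genotype difference of *Nrp1* was smaller than over all ECs and had the same direction in each zone. In capillary-like ECs it stood at 300.5 and 277 CPM in WT and at 471 and 423 CPM in KO mice, a log2 fold change of 0.63 ± 0.14 (adjusted p = 0.0281, edgeR). In venous-like ECs it stood at 178 and 142 CPM in WT and 311 and 251 CPM in KO mice, a log2 fold change of 0.76 ± 0.16 (adjusted p = 0.0424, edgeR). In arterial-like ECs it stood at 182 and 153 CPM in WT and 309.8 and 266 CPM in KO mice, a log2 fold change of 0.72 ± 0.15 (adjusted p = 0.104, edgeR). The groups did not overlap in any zone, and the first pair passed the test while the arterial-like zone did not. The difference did not itself differ between zones, at 0.10 ± 0.14 for arterial-like minus capillary-like ECs (adjusted p = 0.973, edgeR) and 0.15 ± 0.14 for venous-like minus capillary-like ECs (adjusted p = 0.952, edgeR), although a p above the threshold does not show that the zones responded alike. None of the 9 and 7 genes tested for these differences was called, against 0.12% and 0.126% of all genes.

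*Nrp1* was the sole gene of the family called in capillary-like ECs (1 of 7 tested, against 1.33% of all genes) and in venous-like ECs (1 of 7, against 1.4%). None of 8 was called in arterial-like ECs (against 0.195%), where 3 had an unadjusted p under 0.05 and DESeq2 called *Nrp1*. Leaving out WT2 took the call of *Nrp1* away in capillary-like ECs (adjusted p = 0.401) and in venous-like ECs (adjusted p = 0.101), and leaving out KO1 took it away in venous-like ECs (adjusted p = 0.3). It was also lost at an EC clustering resolution of 0.3 in both zones (adjusted p = 0.0527 and 0.054), and in venous-like ECs without the top Scrublet scores (0.0518) or in the *Ackr1*-led cluster alone (0.063), with log2 fold changes of 0.62 to 0.88 in these 4 cases.

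*Vegfc* in capillary-like ECs was higher in KO mice, at 29.1 and 24.8 CPM against 16.9 and 18.4 CPM, with a log2 fold change of 0.60 ± 0.16 (adjusted p = 0.0955, edgeR), opposite in sign to the value over all ECs. In arterial-like ECs its log2 fold change was 0.22 ± 0.16 (adjusted p = 0.741, edgeR) and the mice overlapped. *Nrp2* was above WT in both KO mice in arterial-like (0.71 ± 0.21, adjusted p = 0.336) and capillary-like ECs (0.49 ± 0.14, adjusted p = 0.144) but not in venous-like ECs (-0.16 ± 0.15, adjusted p = 0.72), and venous-like minus capillary-like was -0.64 ± 0.17 (adjusted p = 0.322, edgeR). *Vegfb* in venous-like ECs stood at 18.1 and 22 CPM in WT and 12.1 and 13.55 CPM in KO mice, a log2 fold change of -0.70 ± 0.18 (adjusted p = 0.0891, edgeR). None of these passed the test. *Pgf* was too low for the test in every zone, with 0 to 10 UMIs per mouse.

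**Figure D2:**
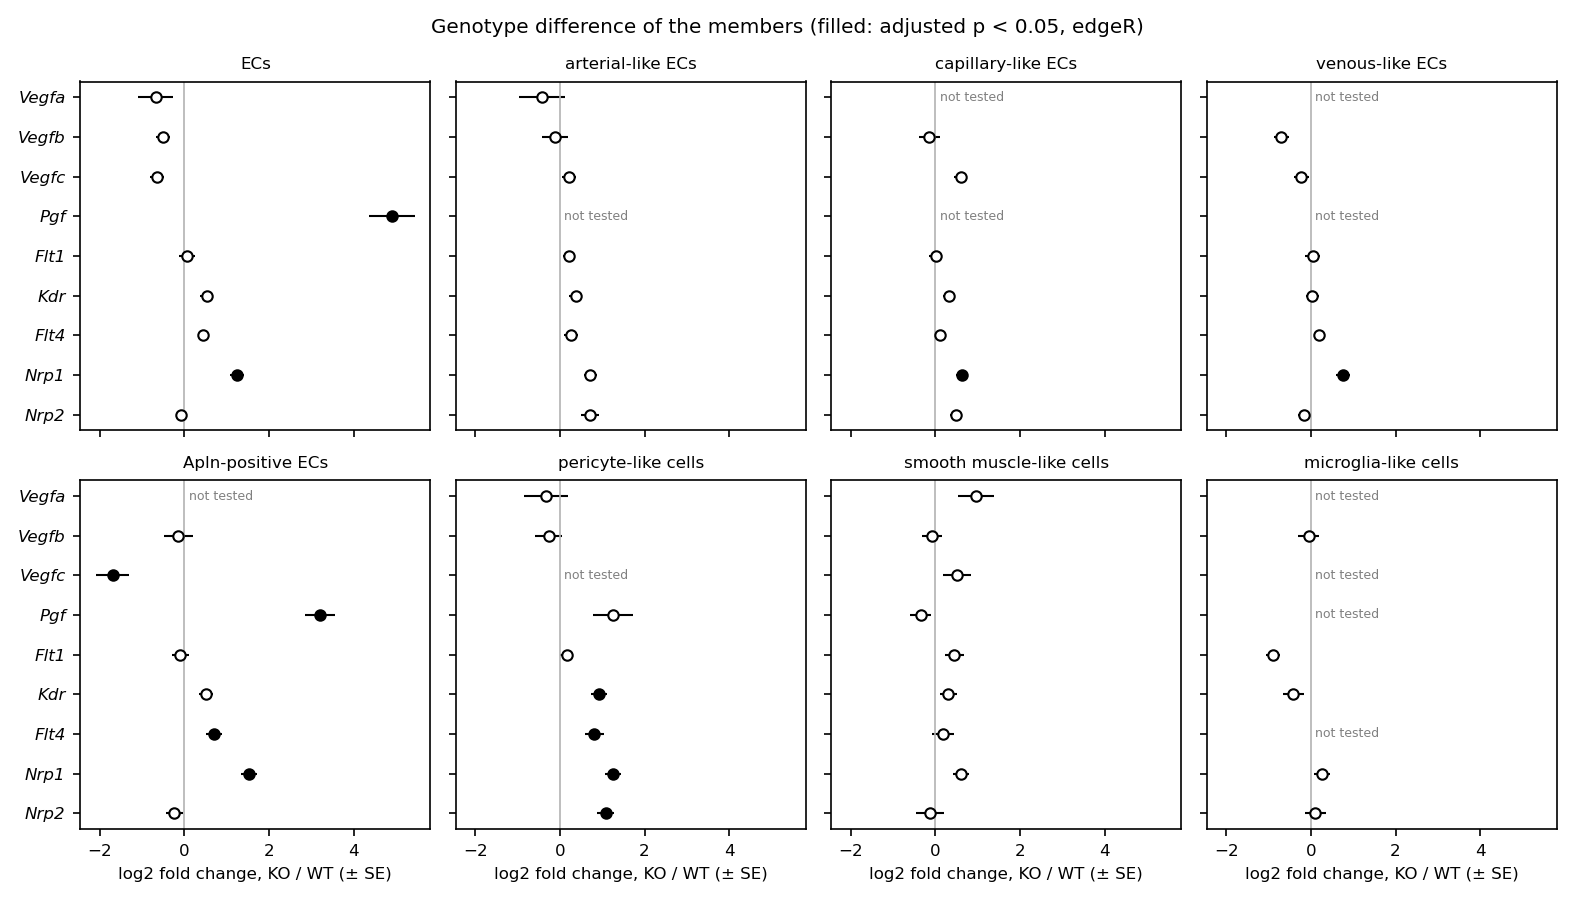
Log2 fold change of KO over WT (x axis, ± SE) for each gene in 8 cell groups, from edgeR on UMIs summed per mouse. Filled points had an adjusted p under 0.05, and genes marked as not tested were too low for the filter. *Nrp1* is filled in 5 of the 8 groups, all to the right of 0, and *Pgf* in ECs (4.90) and in *Apln*-positive ECs (3.21).

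*Apln*-positive ECs, those with at least 1 UMI of *Apln*, a gene of tip cells, differed between genotypes in ligands, a receptor and a coreceptor. They numbered 38, 64, 392 and 308 in WT1, WT2, KO1 and KO2, or 1.18%, 1.36%, 18.8% and 7.43% of ECs. Venous-like ECs gave most of these cells in WT mice, and KO-dominated ECs gave most of them in KO mice. KO-dominated ECs numbered 36, 32, 851 and 895, of which 25, 22, 554 and 711 had no *Apln* UMI. A shift in zones and a change within cells therefore cannot be told apart in the genotype differences of *Apln*-positive ECs. *Nrp1* rose from 243.5 and 183.5 CPM in WT to 634 and 589 CPM in KO mice, a log2 fold change of 1.53 ± 0.19 (adjusted p = 0.000238, edgeR). *Pgf* rose from 1.715 and 12.9 CPM to 89.9 and 75.55 CPM, a log2 fold change of 3.21 ± 0.35 (adjusted p = 9.51e-05, edgeR), although the WT values rest on 1 and 15 UMIs.

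*Flt4* rose from 87.4 and 59.2 CPM to 117 and 111 CPM in these cells, a log2 fold change of 0.70 ± 0.19 (adjusted p = 0.0347, edgeR). *Vegfc* fell from 13.7 and 30.9 CPM to 6.07 and 10.1 CPM, by 1.69 on the log2 scale (SE 0.39, adjusted p = 0.0141, edgeR), with 8 and 36 UMIs in the WT mice. The thinned share of these cells with a *Vegfc* UMI was 1.32% in WT and 1.62% in KO mice (means of 2 mice). In the sums over the group, the receptor gene *Flt4* and its ligand gene *Vegfc* moved in opposite directions. Without WT2 neither was called (*Flt4* adjusted p = 0.465, *Vegfc* adjusted p = 0.546), without KO1 *Flt4* was not called either (adjusted p = 0.137), and DESeq2 gave 0.189 for *Flt4* and 0.0805 for *Vegfc*. *Kdr* stood at 864 and 817 CPM in WT and 1181 and 1233 CPM in KO mice (0.52 ± 0.17, adjusted p = 0.0814, edgeR), and DESeq2 called it (adjusted p = 0.0419) beside *Nrp1* and *Pgf*, 3 genes in all, while *Flt1* (-0.10 ± 0.20), *Nrp2* (-0.23 ± 0.21) and *Vegfb* (-0.14 ± 0.35) overlapped between genotypes. In all, 4 of 8 genes tested were called, against 10% of all genes. The thinned share of these cells with a *Nrp1* UMI was 33.8% in WT and 63% in KO mice (means of 2 mice).

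Within a mouse, *Apln*-positive ECs were set against *Apln*-negative ECs of the same library. In KO mice *Pgf* was almost confined to *Apln*-positive ECs, which held 98.4% of its EC UMIs in KO1 and 95.6% in KO2, and its level went from 0.721 and 0.523 CPM in *Apln*-negative to 89.9 and 75.55 CPM in *Apln*-positive ECs, a log2 difference of 7.05 ± 0.21 (adjusted p = 5.39e-30, edgeR with the mouse as a term). The top cell held 245 of the 678 *Pgf* UMIs in the ECs of KO1 and 84 of the 226 in KO2. The SE and p for *Pgf* do not measure this spread between cells. *Vegfc* went from 32.95 and 39.4 CPM down to 6.07 and 10.1 CPM, a log2 difference of -2.24 ± 0.16 (adjusted p = 6.55e-16, edgeR). The receptors split, *Flt1* being lower in *Apln*-positive ECs of KO mice (-0.52 ± 0.07) and *Kdr* (0.34 ± 0.07), *Flt4* (0.34 ± 0.08), *Nrp1* (0.51 ± 0.07) and *Nrp2* (0.84 ± 0.09) being higher, each with an adjusted p of at most 0.00131 (edgeR).

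In WT mice 4 genes passed the same test. *Nrp2* (0.72 ± 0.11) and *Pgf* (4.36 ± 0.60) were higher and *Flt1* (-0.32 ± 0.08) and *Vegfc* (-0.97 ± 0.21) lower in *Apln*-positive ECs, with adjusted p from 1.34e-06 to 0.00818 (edgeR). *Nrp1* stood at 214 and 176 CPM in *Apln*-negative and at 243.5 and 183.5 CPM in *Apln*-positive ECs of WT1 and WT2, a log2 difference of 0.07 ± 0.10 (adjusted p = 0.856, edgeR). The genotypes differed in this effect for *Vegfc* (KO minus WT -1.27 ± 0.30, adjusted p = 0.00531), *Nrp1* (0.44 ± 0.12, adjusted p = 0.0196) and *Pgf* (2.69 ± 0.59, adjusted p = 0.00232). The called genes were 7 of 9 in KO mice (against 22% of all genes), 4 of 9 in WT mice (against 2.76%) and 3 of 9 for the difference (against 4.68%). DESeq2 called none of 7 for the difference, and none was called with at least 3 *Apln* UMIs as the limit, where WT1 and WT2 gave 6 and 10 cells. For the difference, the call of *Nrp1* was lost whichever of the 4 mice was left out, that of *Vegfc* without WT2 or KO1, and that of *Pgf* without WT1. In WT mice alone, leaving out WT1 kept *Nrp2* and *Pgf*, and leaving out WT2 kept *Vegfc*.

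Cells with an *Apln* UMI were deeper than those without, with medians of 11303 against 5407 UMIs in WT1, 13091.5 against 4477 in WT2, 12685 against 6959 in KO1 and 5881 against 3792.5 in KO2. Deeper cells have a greater chance of showing any given UMI, and the part of depth in these differences was not tested. Zone also varied with *Apln* status. In WT1 and WT2 an *Apln* UMI was in 2.21% and 2.64% of venous-like ECs, against 1.18% and 1.36% of all ECs. These venous-like ECs were deeper, with medians of 9915 and 8535.5 UMIs against 5438 and 4511 in all ECs. By level *Apln* was lower in them, at 1.81 and 2.84 CPM against 3.22 and 4.72 CPM in all ECs. Of the KO-dominated ECs of WT1 and WT2, 30.6% and 31.2% had an *Apln* UMI, at 120 and 261 CPM. In KO1 and KO2 an *Apln* UMI was in 34.9% and 20.6% of KO-dominated ECs, against 18.8% and 7.43% of all ECs. The part of zone was not tested either.

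**Figure D3:**
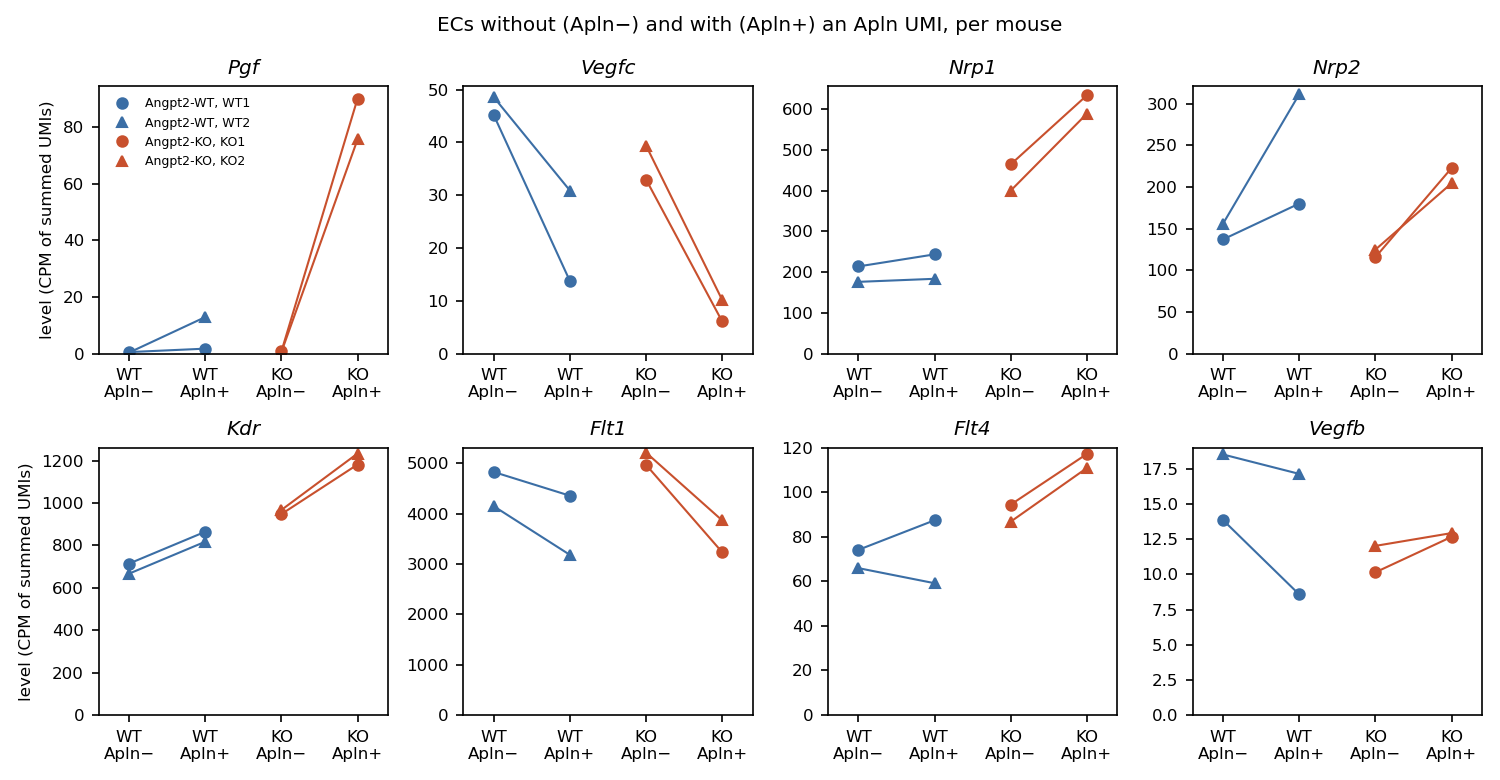
Level (CPM, linear axis from 0) of 8 genes in ECs without and with an *Apln* UMI, with a line joining the sums of each mouse. *Pgf* reaches 89.9 and 75.55 CPM in KO mice, *Vegfc* is lower with *Apln* in 4 of 4 mice, and *Nrp1* is higher with *Apln* in both KO mice (464.5 to 634 and 400 to 589 CPM).

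Smooth muscle-like cells, led by *Acta2*, *Tagln* and *Myh11*, had the highest mean *Pgf* level of the 8 cell groups compared, at 87.2 ± 25.5 CPM (SD, n = 4 mice). It stood at 91.5 and 101.5 CPM in WT1 and WT2 and at 50 and 106 CPM in KO1 and KO2, a log2 fold change of -0.35 ± 0.25 (adjusted p = 0.905, edgeR). The genotype difference was larger in ECs, and smooth muscle-like minus ECs was -5.06 ± 0.58 (adjusted p = 0.000112, edgeR), the sole 1 of 9 genes called for this difference, against 1.07% of all genes. *Vegfc* was also present in them, at 54.3, 81.9, 166.5 and 48.9 CPM in WT1, WT2, KO1 and KO2. KO1, which had 52 such cells, lay far above the others. The summed endothelial markers stood at 37.6%, 39.5%, 52.2% and 36.7% of their EC level in WT1, WT2, KO1 and KO2, highest in KO1. The part of endothelial RNA in the *Vegfc* and other values of smooth muscle-like cells was not tested. *Vegfa* stood at 5.56 and 8.46 CPM in WT and 17.7 and 12.1 CPM in KO mice, from 13 to 18 UMIs per mouse (0.97 ± 0.43, adjusted p = 0.902, edgeR). None of the 9 genes was called, against 0.0195% of all genes, while 2 had an unadjusted p under 0.05, and DESeq2 called none either. Leaving out KO2 made 1 call, *Vegfc* (adjusted p = 0.0026).

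Pericyte-like cells, led by *Vtn* and *Abcc9*, numbered 73, 147, 168 and 205. In their sums 4 of 8 genes tested rose in KO mice, against 5.48% of all genes, namely *Nrp1* (1.255 ± 0.19, adjusted p = 0.000871), *Nrp2* (1.08 ± 0.21, adjusted p = 0.00543), *Kdr* (0.92 ± 0.19, adjusted p = 0.00818) and *Flt4* (0.82 ± 0.21, adjusted p = 0.0332, all edgeR). *Nrp2* went from 86.1 and 55.5 CPM to 160 and 133 CPM, and the groups did not overlap. Leaving out WT2 kept 1 of these calls, *Nrp1*. Endothelial RNA was abundant in these cells. All 7 endothelial markers had UMIs in each mouse and together reached 59.4%, 62.1%, 65.5% and 60.8% of their level in the ECs of WT1, WT2, KO1 and KO2. As a percent of the EC level, *Flt1* stood at 52.8% to 63%, near the markers, and *Nrp1* at 89.8% to 96.9%, above them in each mouse. The percent was higher in KO1 and KO2 than in WT1 and WT2 for *Kdr* (82% and 79.3% against 68.1% and 53.1%), *Flt4* (82.3% and 79.6% against 56.6% and 67.5%) and *Nrp2* (106% and 98.2% against 62.4% and 34.4%), while that of the markers overlapped. The part of endothelial RNA in the pericyte-like values was not tested. In 46, 82, 75 and 76 cells of WT1, WT2, KO1 and KO2 these markers made up at most 0.1% of UMIs. In these cells 3 of the 9 genes could be tested, so not all of the 4 that rose were tested again. None of the 3 was called or had an unadjusted p under 0.05.

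Compared with ECs, the genotype difference in pericyte-like cells was larger for *Nrp2* (difference 1.2 ± 0.18, adjusted p = 3.1e-06) and *Kdr* (0.44 ± 0.11, adjusted p = 0.0145) and smaller for *Pgf* (-3.65 ± 0.74, adjusted p = 0.000889, all edgeR), 3 of 9 against 1.93% of all genes. *Pgf* stood at 3.51 and 7.06 CPM in WT and 15.5 and 11.7 CPM in KO pericyte-like cells (1.25 ± 0.48, adjusted p = 0.161, edgeR). *Vegfa* was low there too, from 5.44 to 9.25 CPM.

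Microglia-like cells, led by *C1qa*, *Cx3cr1* and *C1qb*, numbered 208, 163, 265 and 270. They held *Vegfb*, *Nrp1* and *Nrp2* at more than their share of endothelial RNA. The 7 endothelial markers stood at 14.9%, 18.7%, 6.97% and 12.4% of their EC level in WT1, WT2, KO1 and KO2, while *Vegfb* stood at 266% to 448%, *Nrp1* at 25.8% to 79.5% and *Nrp2* at 33.6% to 49.8%. A *Nrp1* UMI was in 32.5% to 41.1% of microglia-like cells (median depth 3490 to 6265 UMIs), against 5% to 7.69% of B cell-like cells (2130 to 3658 UMIs). Thinned to 2000 UMIs, the shares were 16.4% to 26.3% and 2.08% to 4.76%. By contrast a *Flt1* UMI was in 17.7% to 27.8% of microglia-like and 14.4% to 32.5% of B cell-like cells, so the *Flt1* share there lies within the background.

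In microglia-like cells *Nrp1* stood at 112 and 140 CPM in WT and 134 and 183 CPM in KO mice, and overlapped (0.27 ± 0.19, adjusted p = 0.813, edgeR). *Flt1* was lower in KO mice, at 687 and 839.8 CPM against 386 and 464 CPM, a log2 fold change of -0.90 ± 0.16 (adjusted p = 0.0614, edgeR), and it was called by DESeq2 (adjusted p = 0.00174) and by edgeR without WT1 (adjusted p = 0.0138) or KO2 (adjusted p = 0.00455). The endothelial markers in these cells were also lower in KO mice, at 564 and 1064 CPM against 1237 and 1862 CPM, and without cells above 0.1% of endothelial marker UMIs the *Flt1* value was -0.15 (adjusted p = 0.971, edgeR). None of 5 genes tested was called, against 0.221% of all genes, and 1 had an unadjusted p under 0.05. The genotype difference was smaller in microglia-like cells than in ECs for *Nrp1* (difference -0.97 ± 0.21, adjusted p = 0.00185) and *Kdr* (-0.93 ± 0.22, adjusted p = 0.00568, both edgeR), 2 of 9 against 2.14% of all genes. *Pgf* had 0 UMIs in microglia-like cells of WT1 and WT2, which allows up to 3.14 and 3.97 CPM.

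**Figure D4:**
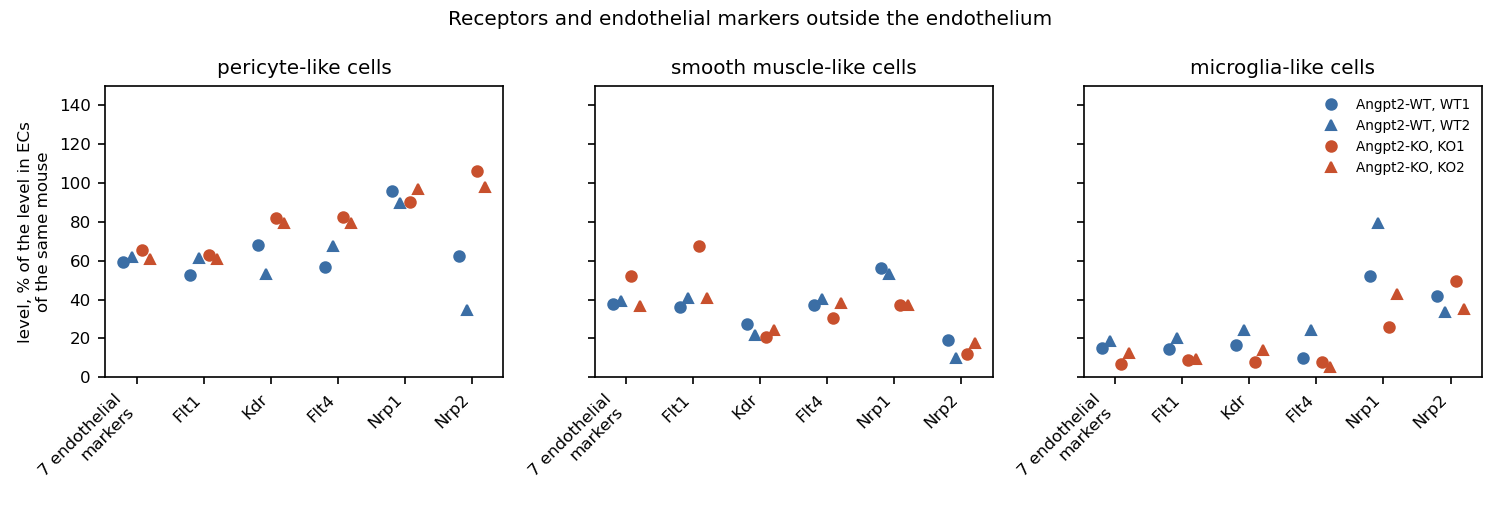
Level of the receptors and of the 7 summed endothelial markers in pericyte-like, smooth muscle-like and microglia-like cells, as a percent of their level in the ECs of the same mouse (1 point per mouse). In pericyte-like cells the markers themselves sit at 59.4% to 65.5%, and in microglia-like cells *Nrp1* (25.8% to 79.5%) and *Nrp2* (33.6% to 49.8%) lie above the markers (6.97% to 18.7%).

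Other genes of the pathway were read from 4 lists, which were chosen with earlier results of these data known. *Apln*, *Esm1* and *Angpt2* of the induced list are also among the leading genes of KO-dominated ECs. The counts of this list are therefore descriptions and not a test of a VEGF response. Among 15 of 16 genes known to be induced by VEGF in endothelium that were tested in ECs, 5 rose in KO mice (against 3.84% of all genes), none fell and 10 were not called, with a median log2 fold change of 0.39 against -0.02 over all genes. *Esm1*, a secreted proteoglycan of tip cells, went from 0.379 and 0.797 CPM to 237 and 91.2 CPM, and *Apln* from 3.22 and 4.72 CPM to 424 and 117 CPM. *Spry4*, a feedback inhibitor of receptor tyrosine kinases, went from 7.04 and 4.52 CPM to 31 and 25.75 CPM (2.29 ± 0.22, adjusted p = 0.00199, edgeR). *Angpt2* was also among them (2.35 ± 0.21, adjusted p = 0.00175, edgeR). Within KO-dominated ECs, however, *Angpt2* was not higher in KO mice, at 137 and 373 CPM in WT1 and WT2 and 114 and 109 CPM in KO1 and KO2. In *Apln*-positive ECs 7 of 13 rose, leaving out *Apln*, which chose the cells (against 5.92% of all genes), *Esm1* from 0 and 1.715 CPM (0 UMIs in WT1, which allows up to 5.14 CPM, and 2 UMIs in WT2) to 656 and 473 CPM, *Spry4* by 2.61 ± 0.32 (adjusted p = 0.00021) and the homeobox gene *Hlx* by 1.65 ± 0.25 (adjusted p = 0.000947, both edgeR).

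Of 20 receptor partners and regulators, 5 rose in KO ECs and none fell (median 0.195), against 3.84% of all genes that rose. The 4 with the largest folds were *Mcam*, a KDR coreceptor (1.82 ± 0.30, adjusted p = 0.0115), the integrin *Itgb3* (1.62 ± 0.36, adjusted p = 0.0366), and the plexins *Plxna4* (1.17 ± 0.15, adjusted p = 0.0052) and *Plxnd1* (1.12 ± 0.17, adjusted p = 0.00832, all edgeR). Plexins form the semaphorin receptors in which neuropilins take part. *Plxnd1* stood at 130 and 109 CPM in WT and at 306 and 224 CPM in KO ECs, without overlap. Within KO-dominated ECs *Mcam* overlapped, at 30.6 and 89.7 CPM in WT and 72.9 and 45.65 CPM in KO mice. *Itgb3*, *Plxna4* and *Plxnd1* were higher in both KO mice there, *Plxnd1* at 304 and 275 CPM in WT and 420 and 378 CPM in KO mice. A shift in cell groups and a change within cells cannot be told apart in the sums over all ECs. In *Apln*-positive ECs 6 of 19 rose (against 5.92% of all genes), led by *Itgb3* (2.53 ± 0.48, adjusted p = 0.00431, edgeR), and 1 fell, the phosphatase *Ptprj*, named after its value was seen (-1.38 ± 0.33, adjusted p = 0.0161, edgeR).

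Of 31 of 32 receptor signalling genes tested in ECs, 1 rose, the SRC family kinase *Fyn* (0.76 ± 0.13, adjusted p = 0.012, edgeR), and none fell, with a median of 0.08, a share no higher than the 3.84% of all genes that rose. In *Apln*-positive ECs 2 of 28 rose, near the 5.92% of all genes, *Fyn* (1.46 ± 0.18, adjusted p = 0.00021) and the kinase *Akt1* (0.69 ± 0.17, adjusted p = 0.0205, both edgeR). None of 7 other VEGF and semaphorin ligands was called in ECs. The highest of these, *Sema3c*, stood at 600.3 and 574 CPM in WT and 525 and 642 CPM in KO ECs, and overlapped. In the zones the induced list gave 1 of 14, 3 of 14 and 4 of 15 called in arterial-like, capillary-like and venous-like ECs, all higher in KO, and the partner list 0 of 19, 2 of 19 and 1 of 20, against 0.148%, 0.947% and 0.943% of all genes that rose in these zones. In pericyte-like cells 4 of 13, 4 of 19 and 1 of 30 rose in the induced, partner and signalling lists, against 3.45% of all genes, the last share being close to that background. In smooth muscle-like cells none of the listed genes was called, and in microglia-like cells 1 of 17 partners fell (against 0.111% of all genes), *Ptprb* (-1.14 ± 0.19, adjusted p = 0.0397, edgeR), which encodes an endothelial phosphatase.

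The genes most like a member were ranked by Pearson's r of log2(CPM + 1) over 32 sums (8 cell groups in 4 mice) among 10929 genes, as a description in which all points share 4 libraries. These groups were arterial-like, capillary-like and venous-like ECs and pericyte-like, smooth muscle-like, microglia-like, fenestrated endothelial-like and erythrocyte-like cells. KO-dominated ECs were left out, and *Apln*-positive ECs did not form a group. *Flt1* was most like *Adgrf5* (r = 0.985), *Rasip1* and *Fgd5*, *Kdr* most like *Dok4* (0.968), *Emcn* and *Cd38*, and *Flt4* most like *Nfib* (0.967), *Rapgef3* and *Shank3*. *Nrp1* was most like *Meox1* (0.929), *Rhbdl2* and *Cd300lg*, and *Nrp2* most like *Gpr182* (0.847), *Aplnr* and *Smagp*. Of the ligands, *Vegfc* was most like the arterial genes *Stmn2* (0.881), *Egfl8* and *Bmx*, and *Pgf* most like *Mustn1* (0.938), *Adcy5* and *Dhx58os*. *Vegfa*, with 497 UMIs, was below the minimum of 500 for this ranking.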

How the data were processed

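Brain vascular cells of 4 mice were profiled by 10x Genomics 3′ v3.1 single-cell RNA sequencing. The authors aligned reads to mm10 (GRCm38) with Cell Ranger, version 6.1.2 in the submitters' processing notes and 6.1.1 in the file headers, and deposited filtered UMI count matrices, 1 per mouse, with 32286 rows, of which 1 (a reporter, yfp) had no UMIs. The cells kept (over 500 genes, under 10% mitochondrial UMIs) numbered 17999 and held 31753395 to 42903731 UMIs per library. Doublets were scored with Scrublet (scanpy 1.11.5) and removed only in an alternative, as the top 5% of each library.

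Cells were clustered with Seurat in R 4.3.3 on up to 2000 variable genes without the 9 genes and the listed pathway genes (85 in all), with 50 principal components, at a resolution of 0.2 for all cells and 0.4 for ECs, and clusters were named from listed markers. Cell groups are rebuilt and may differ from those of the study. An EC cluster with over 90% of its cells from KO mice was kept apart from the capillary-like zone. UMIs were summed per mouse and group and tested with edgeR 4.0.16 (quasi-likelihood, filterByExpr, TMM), adjusted by Benjamini-Hochberg over all genes tested, with a threshold of 0.05. CPM was computed without TMM. Standard errors are those of the log2 fold change. Differences between cell groups and by *Apln* status were fitted with the mouse or cell group as a term. Each mouse is 1 library, so p-values rest on 2 mice per genotype.

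Shares of cells have 95% Clopper-Pearson intervals. A count of 0 allows up to 3 UMIs. Both cover counting error only. Thinned shares use 2000 UMIs per cell and leave out shallower cells. Alternatives were DESeq2 1.42.0, RLE factors, no filter, a replicate block, leaving out each mouse, and other choices of cells. Tests were checked on simulated counts. All 9 genes were named throughout. From the pathway lists up to 4 genes were named, those with the largest fold among the called and otherwise those with the highest level. The 3 genes most like a member were ranked for members with at least 500 UMIs, among genes at 10 CPM or more in at least 1 group. The ranking for *Vegfb* is not reported here. The members and lists were chosen with earlier results of these data known. Promoter sequences are RefSeq's on GRCm38.p6.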

Additional observations from a re-analysis of the deposited data

Results flagged for a closer look

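Each result here is a genotype effect that differed between 2 groups of cells of the same mice by the test of the difference itself (edgeR, adjusted p under 0.05). Between *Apln*-positive and *Apln*-negative ECs, the effect of *Apln* status was lower in KO than in WT mice for *Vegfc* (log2 difference -1.27) and higher for *Nrp1* (0.438) and *Pgf* (2.69). WT mice had 38 and 64 *Apln*-positive ECs, mostly venous-like, whereas those of KO mice were mostly KO-dominated ECs. The part of zone in these differences was not tested. The call of *Nrp1* was lost when any 1 of the 4 mice was left out, and DESeq2 called none of the 3.

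In microglia-like cells the genotype effect was below that in ECs for *Kdr* (-0.929) and *Nrp1* (-0.97). The summed endothelial markers in these cells were also lower in KO mice (564 and 1064 CPM) than in WT mice (1237 and 1862 CPM), and their part in the difference was not tested.

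In pericyte-like cells the genotype effect was above that in ECs for *Nrp2* (1.2) and *Kdr* (0.438) and below it for *Pgf* (-3.65). Endothelial markers stood at 59.4% to 65.5% of the EC level in these cells, and their part in the difference was not tested. In smooth muscle-like cells the effect for *Pgf* was below that in ECs (-5.06). The EC values of *Pgf* rest on 43 cells in KO1 and 35 cells in KO2.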

How the results depend on the processing

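With 2 mice per genotype, single libraries and the choice of cells moved many counts, and no value of the 9 genes that passed the test changed its direction. The cause of each shift was not tested. Genotype calls gained or lost with 1 mouse left out are given beside the results, apart from *Vegfc* (adjusted p = 0.00336) and *Flt4* (0.0482) in ECs and *Nrp1* (0.0204) in arterial-like ECs, all gained without KO2, and *Nrp2* (0.0153) in capillary-like, *Vegfb* (0.0286) in venous-like and *Kdr* (0.0397) and *Nrp2* (0.0487) in *Apln*-positive ECs, all gained without WT1 (edgeR). In pericyte-like cells *Flt4* was also lost without WT1 or KO1. Without cells above 0.1% endothelial marker UMIs, 3 of the 9 genes could be tested in pericyte-like cells. The numbers of the 9 genes called were as follows. In ECs, 2 were called, against 5 with DESeq2, 6 without the filter, 1 without the KO-dominated cluster and 2 to 4 with 1 mouse left out. In arterial-like ECs, 0 were called, against 1 with DESeq2, without the filter and at EC resolution 0.3, and 0 to 1 with 1 mouse left out. In capillary-like ECs, 1 was called, against 3 without the filter, 0 at resolution 0.3, 4 with the KO-dominated cluster added and 0 to 2 with 1 mouse left out. In venous-like ECs, 1 was called, against 2 without the filter (1 higher and 1 lower in KO mice), 0 without the top Scrublet scores, 0 at resolution 0.3 and 0 to 2 with 1 mouse left out. The *Ackr1*-led cluster alone, chosen after seeing the data, also gave 1, which was lower in KO mice. *Vegfb* averaged 24.5 CPM in WT and 10.9 CPM in KO mice in that cluster. In *Apln*-positive ECs, 4 were called, against 2 with at least 3 *Apln* UMIs and 2 to 6 with 1 mouse left out. In pericyte-like cells, 4 were called, against 0 without cells above 0.1% endothelial marker UMIs and 1 to 4 with 1 mouse left out. In smooth muscle-like cells, 0 were called, against 0 to 1 with 1 mouse left out. In microglia-like cells, 0 were called, against 1 with DESeq2, 1 without the filter, 1 without cells holding perivascular macrophage UMIs (an alternative chosen after seeing the data) and 0 to 1 with 1 mouse left out. For *Apln* status, 4 were called in WT mice, against 2 with DESeq2 and 1 to 5 with 1 mouse left out, and 3 for KO minus WT, against 0 with DESeq2, 0 with at least 3 *Apln* UMIs and 1 to 2 with 1 mouse left out.

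Counts over all genes moved as well. ECs gave 807, against 1762 without the filter, 191 without the KO-dominated cluster and 353 to 1215 with 1 mouse left out. Arterial-like ECs gave 21, against 32 (DESeq2), 157 (no filter), 36 (without top Scrublet scores), 42 (resolution 0.3) and 2 to 120. Capillary-like ECs gave 153, against 88 (DESeq2), 327 (no filter), 1200 (with the KO-dominated cluster) and 139 to 238. Venous-like ECs gave 169, against 578 (no filter), 87 (the *Ackr1*-led cluster alone, chosen after seeing the data) and 91 to 607. *Apln*-positive ECs gave 1010, against 564 (DESeq2), 439 (at least 3 *Apln* UMIs) and 546 to 1363. Pericyte-like cells gave 535, against 257 (DESeq2), 834 (no filter), 9 (without cells above 0.1% endothelial marker UMIs) and 168 to 625. Smooth muscle-like cells gave 2, against 1 (DESeq2), 49 (no filter), 5 (without top Scrublet scores), 16 (without cells above 0.1% endothelial marker UMIs) and 34 to 68. Microglia-like cells gave 20, against 233 (no filter), 5 (without top Scrublet scores), 41 (without perivascular macrophage UMIs) and 31 to 167. *Apln* status gave 2830 in KO mice, against 1109 (DESeq2) and 875 to 3144, 355 in WT mice, against 160 (DESeq2) and 158 to 416, and 603 for KO minus WT, against 226 (DESeq2), 253 (at least 3 *Apln* UMIs) and 242 to 646.

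Mice of both genotypes share the numbers 1 and 2, which here also mark females and males. Deviations from the genotype means of same-numbered mice correlated at Pearson 0.0997 and Spearman -0.131 over 13528 genes. With 2 mice per genotype this correlation cannot decide whether the mice were paired. The study speaks of 2 independent experiments, and the labels do not say which mice belonged to each. An experiment that followed the number could not be told apart from sex. With the replicate block, the numbers of the 9 genes called were 4 in ECs, 1 in arterial-like, 3 in capillary-like and 2 in venous-like ECs, 4 in *Apln*-positive ECs, 4 in pericyte-like, 0 in smooth muscle-like and 1 in microglia-like cells. Of these calls, ECs had 2 higher and 2 lower in KO mice, and venous-like ECs had 1 higher and 1 lower. The 3 in capillary-like ECs were all higher. Over all genes the replicate block gave 1217 in ECs, 47 in arterial-like, 342 in capillary-like and 436 in venous-like ECs, 35 in smooth muscle-like and 88 in microglia-like cells. Depth limits *Vegfa* (497 UMIs in all) and *Pgf* in the zones most.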

Other observations

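Fenestrated endothelial-like cells, led by *Plvap*, had more *Kdr* and *Nrp1* than the ECs of brain type in each of the 4 mice. *Kdr* stood at 3296, 2976, 3661 and 3580 CPM in WT1, WT2, KO1 and KO2, and *Nrp1* at 1761, 1676, 1866 and 2135 CPM. *Vegfa* was at 17.5, 16.55, 11.6 and 11.8 CPM there. *Vegfa* had its highest mean level over the cell groups in choroid plexus epithelium-like cells, at 63.2, 55.3, 64 and 17 CPM from 13, 32, 9 and 176 cells, and these values were not tested for a genotype difference. In the 176 cells of KO2, a *Flt1* UMI was in 97.7%, at 3338 CPM, so endothelial RNA was abundant in them. Its part in the *Vegfa* value of KO2 was not tested.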
